A study of Danio rerio with 6 samples.

Results

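The insulin-like growth factor (IGF) genes described here are 10 of the 32266 genes in a count table of the larval zebrafish fin fold. They are the ligand genes igf1, igf2a and igf2b, the receptor genes igf1ra and igf1rb, and the binding protein genes igfbp1a, igfbp1b, igfbp2a, igfbp3 and igfbp5b. They were taken by name, as rows whose gene name equals a member, and all 10 had a row. The list was drawn up with the values of the comparison known, so the members' differences are given as a description and carry no test.

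RNA sequencing compared folds of 3-day-old larvae taken 4 h after amputation (3 libraries, called amputated) with uncut folds (3 libraries). The labels give larval fin fold as the tissue of every sample, and the sample descriptions carry the name DMSO, a solvent, in both groups, while no drug, strain or genotype is named. Nothing in the labels ties replicates to separate batches of larvae, so the p-values of the pathway tests below measure the spread between these libraries, which may be technical.

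IGF ligands act through receptor tyrosine kinases that switch on the PI3K, AKT and mTOR pathway and so promote cell growth, survival and division. Binding proteins hold the ligands outside the cell, where they can block access to the receptor, prolong the ligand's life or release it when proteases cut them. Fish carry paired copies of several of these genes, marked a and b. In zebrafish, igfbp1a is known as a gene of stress and fasting that rises under low oxygen, igf2b and IGF receptor signalling act in regeneration of the adult fin and heart, and igfbp5a is made in ionocytes.

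Total counts were 18595152 to 21128093 in amputated libraries and 11216130 to 23019556 in uncut libraries. Levels are CPM, counts scaled to a common library total by TMM, which sets the bulk of genes level between libraries, and 1 count was worth 0.0436 to 0.0972 CPM. Levels are compared between groups for the same gene and not between genes, since no transcript lengths were used. Summed markers of fin mesenchyme and actinotrichia, the fibres of the fold, stood at 69293 to 78855 CPM in amputated libraries and 150957 to 162753 CPM in uncut libraries. Most of this sum came from col1a1a (means of 42077 CPM in amputated and 86700 CPM in uncut folds), and1 and and2. Of 11 tested, 9 were lower, while tgfbi and twist1a were at 0.02 and 0.07 on the log2 scale (edgeR adjusted p of 0.861 and 0.584). Summed markers of the superficial epidermis stood at 30657 to 37925 CPM in amputated and 41530 to 54310 CPM in uncut libraries. Most of that sum was krt4, with means of 31877 CPM in amputated and 44695 CPM in uncut folds, and 6 of 8 tested were lower. No marker found for these lists was at 0 over the 6 libraries. The second principal component, with 13.7% of the variance, set uncut replicate 1 apart. Over 17883 genes tested with edgeR (quasi-likelihood, Benjamini-Hochberg adjusted p under 0.05), 20.8% were higher in amputated folds (3724 genes) and 19.6% lower (3499 genes). Scaling by library totals alone gave 6821 higher and 1636 lower and moved the median of all tested genes from 0.003 to 0.26 on the log2 scale, so differences below are relative to the bulk of genes as set by TMM.

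The largest difference in the family was in igfbp1a, which was 5.98 times as high in amputated folds as in uncut folds. The binding protein genes igfbp2a and igfbp5b and the ligand gene igf2a were lower in amputated folds, by 19.8% to 31.6%. The genes igfbp3, igf2b, igf1ra and igf1rb had groups that overlapped, and igf1 and igfbp1b were close to unread. The filter on low counts passed 8 of the 10 members. Among these 8 the groups did not overlap in 4, with igfbp1a above and igfbp2a, igfbp5b and igf2a below. In all tested genes the share whose groups did not overlap was 51.1%, with amputated above uncut in 26.9% and below in 24.1%. The median log2 fold change was −0.05 over the 8 members and 0.003 over all tested genes.

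**Figure D1:**
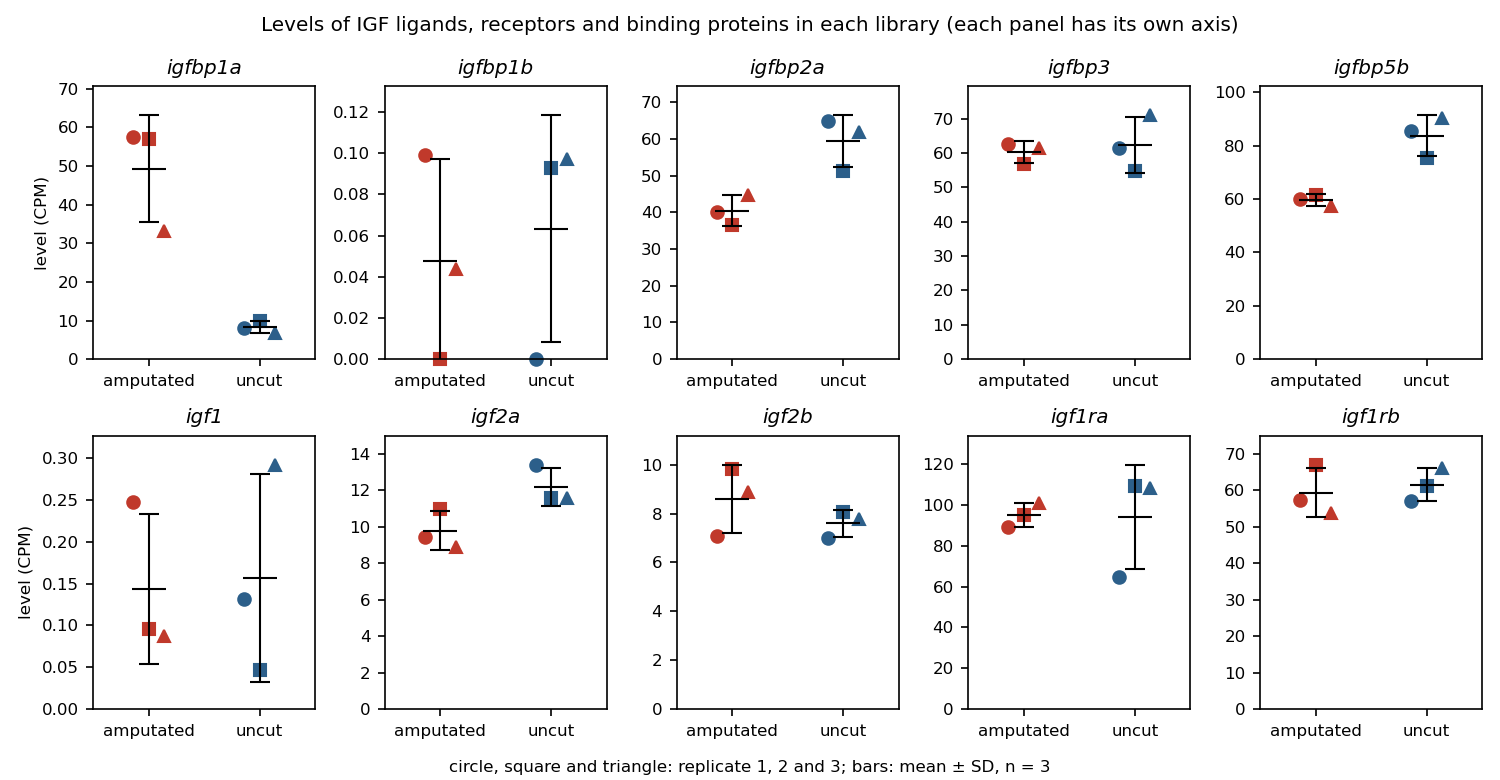
Level (CPM, linear axis from 0, a separate axis for each gene) of the 10 genes in each library, amputated left and uncut right. Points are libraries, and bars are mean ± SD of 3 libraries. For igfbp1a the amputated libraries sit between 33.2 and 57.4 CPM, above the uncut libraries at 6.81 to 9.86 CPM.

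The binding protein gene igfbp1a (ENSDARG00000099351, human counterpart IGFBP1) lies on chromosome 20 from 6818827 to 6822741. Coordinates are copied from the deposited table, and the sources used here do not name its genome build. The gene stood at 57.4, 57.1 and 33.2 CPM in amputated replicates 1, 2 and 3, against 8.04, 9.86 and 6.81 CPM in uncut replicates 1, 2 and 3. Every amputated library was above every uncut library, and amputated replicate 3 was the lowest of its group. The means were 49.2 ± 13.9 CPM in amputated folds and 8.24 ± 1.54 CPM in uncut folds (SD, n = 3 each). These levels rested on 3109 reads in the amputated group and 404 in the uncut group. The log2 fold change was 2.55 ± 0.21 (SE), a fold of 5.84, and 106 of the 17883 tested genes had a larger positive value. Leaving out amputated replicate 3 gave 2.77 and leaving out amputated replicate 1 gave 2.42, which are the extremes when any library was left out. In the authors' deposited table, whose fold changes run uncut over amputated, the value turned round was 2.34 with a standard error of 0.22.

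IGFBP1 is made mainly by the liver in mammals, so liver markers were set beside it. Of 10 hepatocyte markers, fga and serpina1 had no reads in any library and 3 passed the filter. The whole list summed to 3.27 to 4.16 CPM in amputated libraries and 5.40 to 6.26 CPM in uncut libraries. The 3 tested, fabp10a, tfa and cp, had edgeR adjusted p of 0.308, 0.515 and 0.0706 and did not pass the test. Leukocyte markers moved with igfbp1a, since all 12 of 12 were higher after amputation, with none at 0. Their sum was 124 to 163 CPM in amputated libraries against 39.0 to 44.1 CPM in uncut libraries. The largest part of the uncut sum was csf1ra, with means of 25.7 CPM in amputated and 19.4 CPM in uncut folds. It rose by 0.41 on the log2 scale, and the other leukocyte markers by 1.38 to 3.00. Summed skeletal muscle markers were at 805 to 907 CPM in amputated libraries and 980 to 1214 CPM in uncut libraries, and 8 of 12 tested were lower. Among all tested genes 20.8% were higher and 19.6% lower. The part of liver cells, leukocytes, muscle or mesenchyme in the members' differences was not tested. In bulk RNA, fewer cells of a type and less RNA per cell cannot be told apart.

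The second copy, igfbp1b (ENSDARG00000038666, chromosome 2, 135384 to 138963), was close to unread. It had 2, 0 and 1 reads in amputated replicates 1, 2 and 3, and 0, 2 and 1 reads in uncut replicates 1, 2 and 3. Pooled over the group this is 0.0469 CPM in amputated folds (exact 95% Poisson interval 0.00968 to 0.137, counting error only) and 0.0639 CPM in uncut folds (0.0132 to 0.187). A difference was not detectable at this depth, and no fold is given.

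The gene igfbp3 (ENSDARG00000099144) is the neighbour of igfbp1a on chromosome 20, from 6766300 to 6814290, and encodes the main carrier of circulating IGF in mammals. The gene models are 4536 bases apart. It stood at 62.7, 56.7 and 61.4 CPM in amputated replicates 1, 2 and 3, and at 61.4, 54.8 and 71.0 CPM in uncut replicates 1, 2 and 3. The amputated libraries lay within the uncut range, with a log2 fold change of −0.05 ± 0.10 (SE) that was 0.21 with library totals alone. The number of igfbp1a reads per igfbp3 read does not depend on how libraries are scaled. It was 0.916, 1.01 and 0.542 in amputated replicates 1, 2 and 3, and 0.131, 0.180 and 0.0959 in uncut replicates 1, 2 and 3. The lowest amputated ratio was therefore above the highest uncut ratio, and the mean ratio was 6.06 times as high in amputated folds. Of the other genes within 200 kb, adcy1a did not pass the filter and tns3.2 was at −0.75 ± 0.08 (SE) on the log2 scale.

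The gene igfbp2a (ENSDARG00000052470, chromosome 6, 18861319 to 18891956) encodes a binding protein that restrains IGF action and growth in zebrafish embryos. It stood at 40.1, 36.4 and 44.8 CPM in amputated replicates 1, 2 and 3, and at 64.9, 51.4 and 61.7 CPM in uncut replicates 1, 2 and 3. Every amputated library was below every uncut library. The means were 40.4 ± 4.21 CPM in amputated folds and 59.3 ± 7.09 CPM in uncut folds (SD, n = 3 each), a log2 fold change of −0.55 ± 0.11 (SE). Scaled by library totals alone, the value was −0.29 and the groups overlapped.

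The gene igfbp5b (ENSDARG00000025348, chromosome 9, 47020157 to 47041700) encodes a binding protein that in mammals also attaches to matrix and bone mineral. It stood at 60.0, 61.6 and 57.4 CPM in amputated replicates 1, 2 and 3, and at 85.4, 75.2 and 90.3 CPM in uncut replicates 1, 2 and 3. Amputated libraries lay close together, with a coefficient of variation of 3.54%, and all were below the uncut libraries, where it was 9.21%. The log2 fold change was −0.49 ± 0.09 (SE). Library totals alone gave −0.23, and the groups still did not overlap.

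Both genes sit beside another IGFBP gene. The neighbour of igfbp2a is igfbp5a, 2845 bases away, and that of igfbp5b is igfbp2b, 21015 bases away. Both neighbours are on the list of other family genes and were tested with all other genes, though that list was written with earlier results of these data known. The gene igfbp2b fell after amputation, at 5.44 ± 0.35 CPM in amputated folds and 10.4 ± 3.70 CPM in uncut folds (SD, n = 3 each), with a log2 fold change of −0.91 ± 0.22 (SE) and an edgeR adjusted p of 0.00656. Its uncut libraries were uneven, at 6.39 CPM in replicate 1 and 10.98 and 13.7 CPM in replicates 2 and 3. The gene igfbp5a was at 0.57 ± 0.32 (SE) with an edgeR adjusted p of 0.177 and did not pass the test, with means of 1.21 CPM in amputated folds and 0.85 CPM in uncut folds. With library totals alone igfbp5a was called higher, at 0.82 with an edgeR adjusted p of 0.049.

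Reads of igfbp2a per igfbp5a read were 31.1, 37.9 and 32.1 in amputated replicates 1, 2 and 3, and 89.5, 69.0 and 57.7 in uncut replicates 1, 2 and 3. These ratios did not overlap, but they rest on few igfbp5a reads. There were 26, 20 and 32 in amputated replicates 1, 2 and 3, and 11, 16 and 11 in uncut replicates 1, 2 and 3. The gap between the groups was not set against counting error. Reads of igfbp5b per igfbp2b read were 11.5, 11.6 and 9.82 in amputated replicates 1, 2 and 3, and 13.4, 6.85 and 6.59 in uncut replicates 1, 2 and 3. Here the groups overlapped, because uncut replicate 1 was above the amputated libraries and the other uncut libraries were below them. The pairs were chosen by their place on the chromosome and by paralogy after the table had been seen, and their ratios are descriptions.

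**Figure D2:**
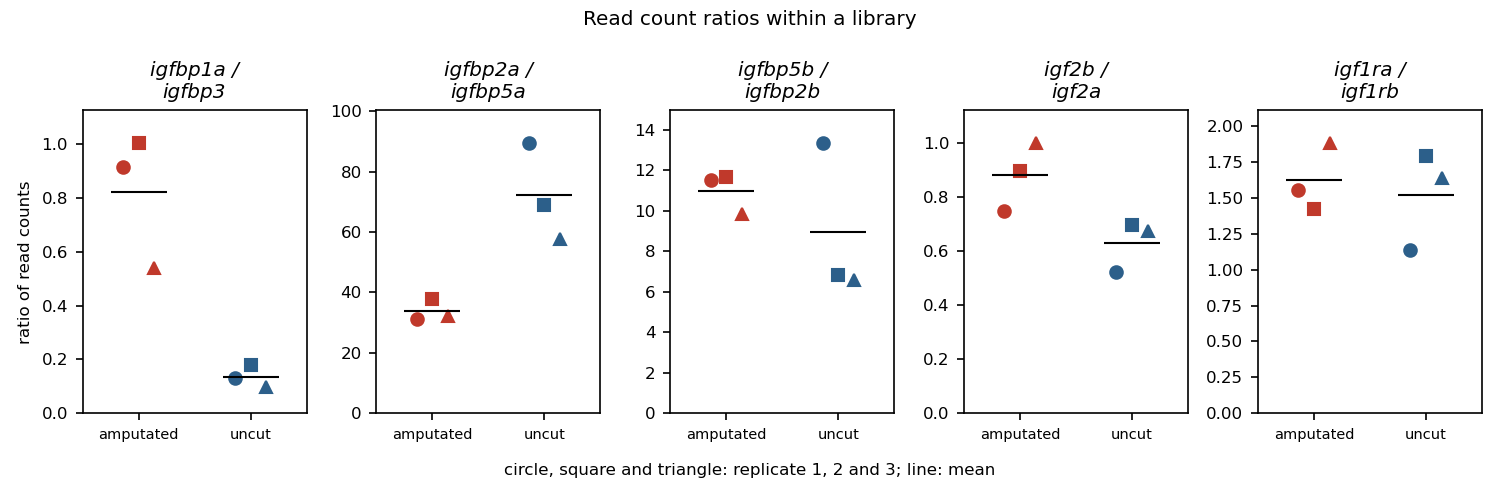
Reads of the first gene per read of the second within each library (linear axis from 0, a separate axis for each pair), amputated left and uncut right, with the mean as a line. The ratio of igfbp1a to igfbp3 is 0.542 to 1.01 in amputated libraries, above 0.0959 to 0.180 in uncut libraries.

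Among the ligands, igf1 (ENSDARG00000094132, chromosome 4, 17321167 to 17337741), the main endocrine IGF, was barely read. It had 5, 2 and 2 reads in amputated replicates 1, 2 and 3, and 2, 1 and 3 reads in uncut replicates 1, 2 and 3. The pooled level was 0.141 CPM in amputated folds (exact 95% Poisson interval 0.0644 to 0.267) and 0.128 CPM in uncut folds (0.0469 to 0.278). These intervals overlap almost wholly, and a difference was not detectable at this depth.

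The fetal-type ligand IGF2 has a pair of genes in zebrafish, and both were read. The gene igf2a (ENSDARG00000018643, chromosome 7, 48597720 to 48603704) stood at 9.46, 10.96 and 8.90 CPM in amputated replicates 1, 2 and 3, and at 13.4, 11.6 and 11.6 CPM in uncut replicates 1, 2 and 3. The groups were close but did not overlap, and the log2 fold change was −0.32 ± 0.13 (SE). Under scaling by totals alone it was −0.06 and the groups overlapped. Read counting by itself would give a coefficient of variation of 6.96% in amputated and 7.60% in uncut libraries, against observed values of 10.9% in amputated and 8.52% in uncut libraries.

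The gene igf2b (ENSDARG00000033307, chromosome 25, 23941816 to 23949322) stood at 7.08, 9.81 and 8.90 CPM in amputated replicates 1, 2 and 3, and at 6.98, 8.05 and 7.78 CPM in uncut replicates 1, 2 and 3. Its groups overlapped, since amputated replicate 1 lay within the uncut range. The log2 fold change was 0.18 ± 0.15 (SE). Library totals alone gave 0.43, and then the groups did not overlap. Reads of igf2b per igf2a read, which need no scaling, were 0.749, 0.895 and 1.00 in amputated replicates 1, 2 and 3, and 0.522, 0.695 and 0.672 in uncut replicates 1, 2 and 3. The ratio was higher in every amputated library than in any uncut library, by 1.40 times on average, although amputated replicate 1 and uncut replicate 2 were close. These ratios rest on 80 to 204 igf2b reads and 119 to 249 igf2a reads per library. Their gap was not set against counting error.

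The receptor gene igf1ra (ENSDARG00000027423, chromosome 18, 20892396 to 21058514) stood at 89.3, 95.3 and 101 CPM in amputated replicates 1, 2 and 3. In uncut replicates 1, 2 and 3 it stood at 65.0, 109.6 and 108 CPM. Uncut replicate 1 was the lowest of all 6 libraries and the other uncut libraries were the highest, so the amputated libraries lay between them. The log2 fold change was 0.02 ± 0.16 (SE) with all libraries, −0.19 without uncut replicate 1 and 0.14 without uncut replicate 2. The coefficient of variation was 6.27% in amputated and 26.9% in uncut libraries, where counting alone would give 2.23% in amputated and 2.79% in uncut libraries.

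The second receptor gene, igf1rb (ENSDARG00000034434, chromosome 7, 15197942 to 15361842), stood at 57.3, 66.9 and 53.7 CPM in amputated replicates 1, 2 and 3, and at 57.0, 61.3 and 66.0 CPM in uncut replicates 1, 2 and 3. Its groups overlapped, and the log2 fold change of −0.05 ± 0.10 (SE) was smaller than its error, with 0.21 for library totals alone. Reads of igf1ra per igf1rb read were 1.56, 1.42 and 1.88 in amputated replicates 1, 2 and 3, and 1.14, 1.79 and 1.64 in uncut replicates 1, 2 and 3. These ratios overlapped too, with the lowest again in uncut replicate 1.

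**Figure D3:**
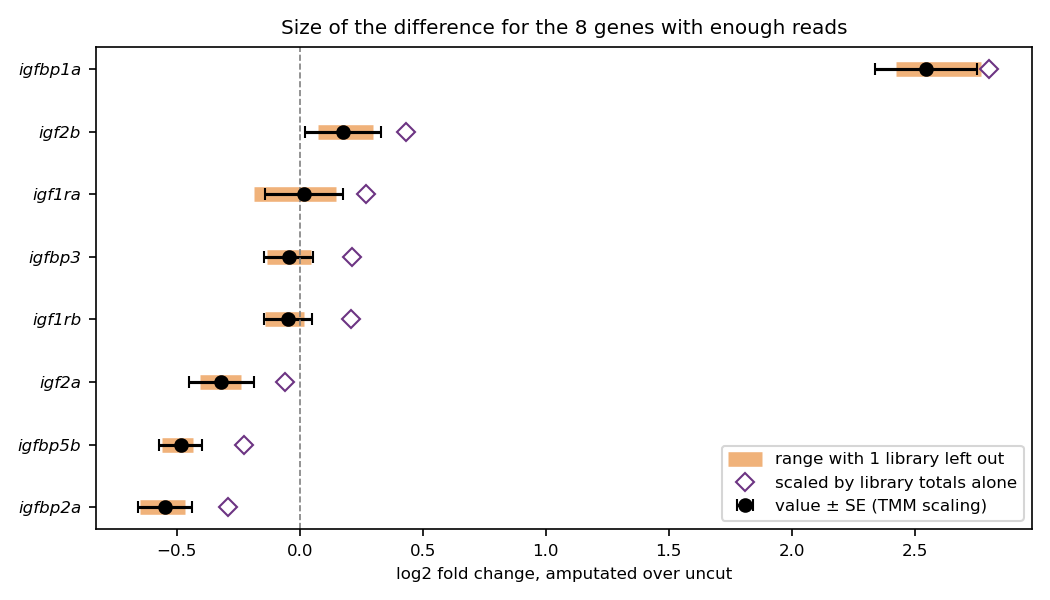
Log2 fold change, amputated over uncut, for the 8 genes that passed the filter, as value ± SE (n = 3 libraries a group), with the range when any library is left out (shaded) and the value with library totals alone (diamonds). The value for igfbp1a is 2.55, and the other 7 lie between −0.55 and 0.18.

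Genes whose profile over the 6 libraries was closest to igfbp1a were irak3, mpx, fosl1a and cd44a, by distance between log2(CPM + 1) values centred on each gene's mean. The 10795 genes compared averaged 5 CPM or more, passed the filter and were not members, and genes with a clone-type name or none were left out. The 4 encode a brake on toll-like and interleukin-1 receptor signalling, the neutrophil peroxidase, an AP-1 transcription factor and a receptor for the matrix sugar hyaluronan. Their distances were 0.379 for irak3, 0.408 for mpx, 0.425 for fosl1a and 0.569 for cd44a. The level of irak3 was 13.5, 15.2 and 10.6 CPM in amputated replicates 1, 2 and 3, and 1.38, 1.91 and 1.46 CPM in uncut replicates 1, 2 and 3. That of mpx was 24.8, 30.7 and 14.8 CPM in amputated replicates 1, 2 and 3, and 4.55, 4.79 and 2.63 CPM in uncut replicates 1, 2 and 3. Like igfbp1a, all 4 were lowest among amputated libraries in replicate 3. They were picked by closeness over these same libraries, so a shared order is built into the choice.

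Closest to igfbp2a were cyp2v1, a cytochrome P450 gene, soul3, pabpc1b, a poly(A)-binding protein gene, and cxxc5a, a zinc finger gene. Their distances were 0.0671, 0.0695, 0.0845 and 0.0928. The level of pabpc1b was 114, 103 and 126 CPM in amputated replicates 1, 2 and 3, and 185, 154 and 182 CPM in uncut replicates 1, 2 and 3. In both groups these genes, like igfbp2a, were lowest in replicate 2, an order that the choice by distance favours in the same way. Distances of the 2 sets are on different spans, because igfbp2a varied less than igfbp1a.

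**Figure D4:**
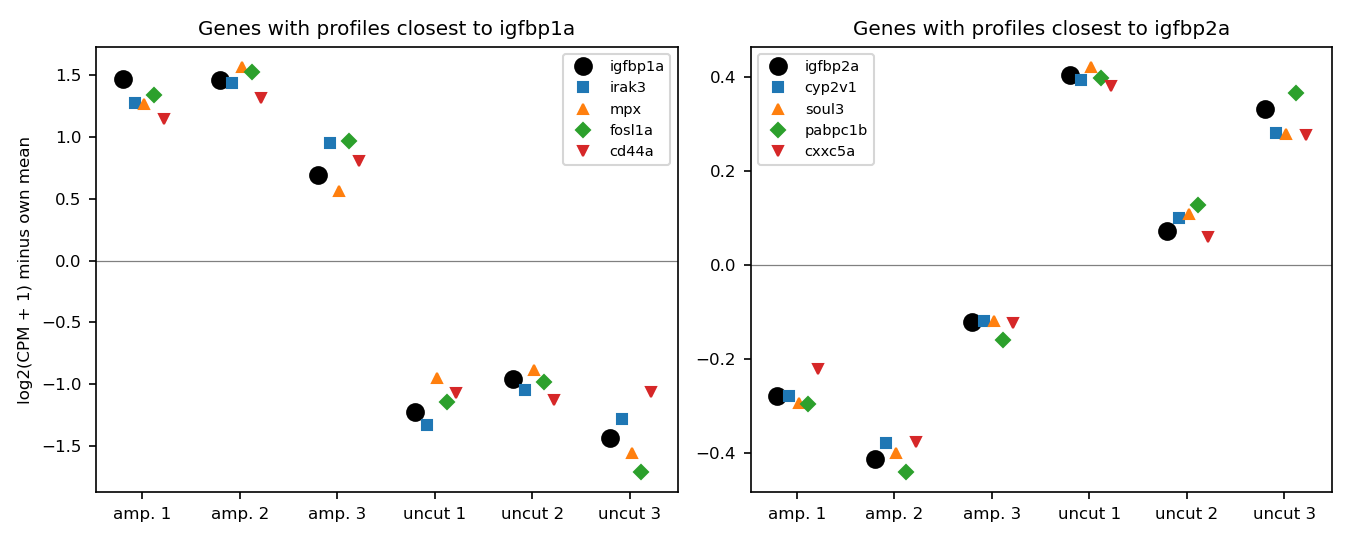
Level as log2(CPM + 1) minus the gene's own mean in each of the 6 libraries, amputated libraries left and uncut right, for igfbp1a (left panel) and igfbp2a (right panel) with the 4 genes closest to each. The vertical axes differ: igfbp1a and its 4 genes are lowest among amputated libraries in replicate 3, and igfbp2a and its 4 genes in replicate 2. The genes were picked by closeness over these same libraries, so a shared order is built into the choice.

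The other genes of the pathway were counted from 7 lists written by name, of which 147 of 159 names were found and 131 genes passed the filter. Of these 131, 41 fell and 16 rose in edgeR's test across all genes. That is 31.3% lower, against a background of 19.6%, and 12.2% higher, against a background of 20.8%. The median log2 fold change of the 131 was −0.16, beside 0.003 over all tested genes. With library totals alone 19 fell and 32 rose, while over all tested genes 1636 fell and 6821 rose. The median of the 131 was then 0.098, beside 0.26 over all tested genes. Counts of each list under that scaling, given below, stand beside the same 1636 and 6821 of 17883 tested genes. They are out of 11, 10, 31, 24, 12, 10 and 33 tested genes, in the order of the lists below. By list, the lower and higher shares were 36.4% and 0% (other family genes), and 10% and 10% (proteases and stanniocalcins). They were 41.9% and 0% (adaptors, PI3K and AKT), 33.3% and 20.8% (mTOR), and 41.7% and 41.7% (FOXO and GSK3). The last lists had 20% and 20% (growth hormone axis) and 24.2% and 9.09% (hypoxia). The same background, 19.6% lower and 20.8% higher, holds for each of these shares. Neither the lists nor these shares were given a test of their own. With the replicate number as a block, 4016 fell and 4125 rose over all tested genes. With a library left out, 2732 to 3667 fell and 3011 to 3869 rose. List counts under those fits, given below, are to be read beside these.

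In the list of other IGF and insulin family genes, 4 of 11 tested fell and none rose. At an unadjusted p under 0.05, edgeR gave 1 higher, and DESeq2 gave 0 higher with adjusted p. With the replicate number as a block, igf2r, the clearance receptor for IGF2 in mammals, was the 1 that rose, at 0.31 with an edgeR adjusted p of 0.0257. Scaling by totals alone gave 5 higher and 3 lower. The gene igfbp7, which encodes an IGFBP-related matrix protein, fell to 14.1 ± 2.49 CPM in amputated folds, against 33.1 ± 4.99 CPM in uncut folds (SD, n = 3 each), a log2 fold change of −1.24 ± 0.14 (SE) with an edgeR adjusted p of 3.28e-05. The insulin receptor gene insra fell to 72.8 ± 3.31 CPM in amputated folds, against 114.7 ± 5.69 CPM in uncut folds, with −0.65 ± 0.08 (SE) and an edgeR adjusted p of 4.82e-05. Its paralog insrb was at −0.12 ± 0.11 (SE), with an edgeR adjusted p of 0.424, and passed without uncut replicate 1 (adjusted p 0.034). The mRNA-binding protein gene igf2bp2b fell by 0.33 on the log2 scale with an edgeR adjusted p of 0.0207. That call was lost with library totals alone (0.604) and without amputated replicate 1 (0.0798), amputated replicate 3 (0.0909), uncut replicate 2 (0.0602) or uncut replicate 3 (0.0641). Without uncut replicate 3 the related gene igf2bp2a rose (0.0235). Both insulin genes, ins and insb, were too few in reads to be tested.

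Proteases that cut IGFBPs and the stanniocalcins that block some of them gave 1 higher and 1 lower of 10 tested. The gene of the serine protease htra1a fell to 46.2 ± 1.07 CPM in amputated folds, against 72.4 ± 5.18 CPM in uncut folds, with −0.65 ± 0.08 (SE) and an edgeR adjusted p of 7.19e-05. The lysosomal protease gene ctsd rose to 162 ± 2.77 CPM in amputated folds, against 121.6 ± 1.46 CPM in uncut folds, with 0.41 ± 0.07 (SE) and an edgeR adjusted p of 0.000645. The pappalysin gene pappaa, whose product cuts Igfbp5 in zebrafish ionocytes, was at 0.01 ± 0.19 (SE), with means of 20.3 CPM in amputated folds and 20.1 CPM in uncut folds. Library totals alone gave 3 higher and 1 lower. Without uncut replicate 1 a second gene, pappa2, was lower, at −0.71 with an edgeR adjusted p of 0.0151.

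Of 31 receptor adaptor, PI3K and AKT genes, 13 fell and none rose, with 0 higher at an unadjusted p under 0.05 and 0 higher in DESeq2. The insulin receptor substrate gene irs2a fell to 30.5 ± 4.67 CPM in amputated folds, against 54.9 ± 5.35 CPM in uncut folds, with −0.85 ± 0.12 (SE) and an edgeR adjusted p of 0.000124. The substrate gene irs2b also fell, at −0.58, a call lost with library totals alone (edgeR adjusted p of 0.0822). The gene grb10a, whose product dampens the insulin and IGF receptors, fell to 16.4 ± 2.13 CPM in amputated folds, against 27.5 ± 2.83 CPM in uncut folds. The phosphatase genes inppl1a, inppl1b and phlpp1 fell by 0.22, 0.49 and 0.30 on the log2 scale. These calls were lost with library totals alone (edgeR adjusted p of 0.677, 0.112 and 0.752). The phosphatase genes ptena, ptenb and phlpp2 did not pass the test. The kinase gene akt2l fell by 0.64 on the log2 scale, and akt1s1, which encodes an mTOR inhibitor that AKT acts on, by 0.60. The other AKT kinase genes akt1, akt2, akt3a and akt3b did not pass the test. In akt2 every amputated library was above every uncut library, at means of 117 CPM in amputated and 107 CPM in uncut folds. Its log2 fold change was 0.13, and it was called higher with library totals alone (edgeR adjusted p of 0.00118). Under scaling by totals alone, 4 fell and 2 rose, beside 1636 that fell and 6821 that rose over all tested genes. The list median was then 0.012, beside 0.26 over all tested genes. Without amputated replicate 1, 8 fell, beside 2820 over all tested genes. Without amputated replicate 3, 1 gene of the list rose, which was not among the 31 tested with all libraries.

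Of 24 genes of the mTOR complexes and their outputs, 8 fell and 5 rose. The 8 that fell were deptor, tbc1d7, eif4ebp2, eif4ebp3, eif4ebp3l, ddit4, sesn1 and sesn3. Apart from tbc1d7, a subunit of the TSC complex, these encode an mTOR inhibitor, translation repressors that mTOR releases, and stress-induced brakes on mTOR. Other genes of these kinds did not fall. The repressor gene eif4ebp1 was at 0.20, with every amputated library above every uncut library, and sesn2 was at −0.02. The TSC complex genes tsc1a and tsc1b were at 0.01 and 0.09. None of them passed the test, but with library totals alone eif4ebp1, tsc1a and tsc1b were called higher. The 5 that rose were rictora, an mTORC2 subunit gene, the S6 kinase genes rps6kb1a and rps6kb1b, and the cap-binding factor genes eif4ea and eif4eb. The level of deptor was 14.9, 13.03 and 14.6 CPM in amputated replicates 1, 2 and 3, and 29.1, 30.2 and 33.4 CPM in uncut replicates 1, 2 and 3, with −1.12 ± 0.10 (SE) and an edgeR adjusted p of 7.07e-06. The gene rps6kb1a stood at 32.2, 37.0 and 26.3 CPM in amputated replicates 1, 2 and 3, and at 14.6, 16.7 and 17.6 CPM in uncut replicates 1, 2 and 3, with 0.97 ± 0.13 (SE) and an edgeR adjusted p of 0.000114. In both genes the groups were far apart. The repressor gene eif4ebp3 fell by 1.13 and eif4ea rose by 0.77 on the log2 scale. The kinase gene mtor itself was at −0.06 ± 0.10 (SE) and did not pass the test. Scaled by library totals alone, 10 rose and 5 fell. The call of tbc1d7 was lost without amputated replicate 1 (edgeR adjusted p of 0.0804), amputated replicate 2 (0.0694) or uncut replicate 1 (0.0585). Scaling by totals alone also ended it (0.386). That of ddit4 was lost without amputated replicate 1 (0.0981), amputated replicate 2 (0.0731) or uncut replicate 2 (0.19), and that of rictora without amputated replicate 2 (0.0725). The same scaling ended the calls of ddit4 (0.166) and eif4ebp2 (0.197).

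Genes of FOXO factors, which IGF signalling holds inactive, and of the kinases GSK3 and SGK moved both ways, with 5 of 12 tested higher and 5 lower. The factor gene foxo1a rose to 45.5 ± 6.81 CPM in amputated folds, against 26.6 ± 0.94 CPM in uncut folds, with 0.77 ± 0.11 (SE) and an edgeR adjusted p of 0.000163. Its paralog foxo1b fell, as did foxo3a, foxo3b and foxo4, at −0.67, −0.31, −0.43 and −0.41. The kinase gene gsk3bb, named here through its gene ID, rose to 9.42 ± 2.004 CPM in amputated folds, against 2.53 ± 0.87 CPM in uncut folds, with 1.84 ± 0.24 (SE) and an edgeR adjusted p of 8.12e-05. The kinase gene gsk3ab rose by 0.21, with an edgeR adjusted p of 0.0366. That call was lost in DESeq2 (adjusted p 0.0681) and, in edgeR, without the filter (0.0571). It was also lost in every fit with a library left out (0.0537 to 0.125), each of which gave 4 higher. The stress-induced kinase gene sgk1 rose by 0.58. Of its relatives, sgk2b rose by 1.16, at means of 2.88 CPM in amputated and 1.28 CPM in uncut folds, and sgk3 fell by 0.34. The call of sgk3 was lost with library totals alone (edgeR adjusted p of 0.535) and in some fits with a library left out. Library totals alone gave 5 higher and 0 lower, and foxo4 lost its call (edgeR adjusted p of 0.197). Among fits with a library left out, 2 fell without amputated replicate 2, without uncut replicate 2 and without uncut replicate 3, while 3 fell without amputated replicate 1 and without amputated replicate 3. The calls of foxo1b (edgeR adjusted p of 0.053 to 0.135) and foxo3a (0.0545 to 0.161) were lost in all of these.

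In the growth hormone axis, 2 of 10 tested rose and 2 fell. These shares are near those over all tested genes, 20.8% higher and 19.6% lower. The called genes were the kinase gene jak2a and the factor gene stat5a, which rose by 0.25 and 0.63. The kinase gene jak2b and the feedback inhibitor gene cishb fell by 0.31 and 0.77. The edgeR adjusted p was 0.0242 for jak2a, 0.0147 for stat5a, 0.013 for jak2b and 0.00215 for cishb. The call of jak2a was lost in DESeq2 (adjusted p 0.065) and without amputated replicate 1 (0.11), amputated replicate 2 (0.0557), uncut replicate 2 (0.0653) or uncut replicate 3 (0.0648). That of stat5a was lost without amputated replicate 2 (0.0797), and that of jak2b without amputated replicate 3 (0.0595) and with library totals alone (0.654). With the replicate number as a block 4 fell, as they did without uncut replicate 1, the added ones being the receptor gene ghra and socs2. The gene ghra was also called lower in DESeq2 (adjusted p 0.0292) and without the filter (edgeR adjusted p of 0.0104). Scaling by totals alone gave 3 higher and 1 lower.

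Of 33 tested genes of the hypoxia response, 8 fell and 3 rose, beside the higher level of igfbp1a. With the replicate number as a block 12 fell, and with a library left out 6 to 12 fell. Over all tested genes, 4016 fell with the block and 2732 to 3667 with a library left out, beside 3499 in the main fit. The mitophagy receptor genes bnip3 and bnip3lb fell by 0.96 and 0.68 on the log2 scale, with edgeR adjusted p of 0.00072 and 0.000213. The largest fall on the list was that of egln3, at −1.33, with means of 1.38 CPM in amputated and 3.56 CPM in uncut folds. The collagen prolyl hydroxylase gene p4ha1a fell to 52.4 ± 3.31 CPM in amputated folds, against 80.9 ± 10.1 CPM in uncut folds. The related genes p4ha1b and p4ha2 fell by 0.42 and 0.70, and the call of p4ha1b was lost with library totals alone (edgeR adjusted p of 0.327) and in some fits with a library left out. The gene ndrg1a rose to 8.78 ± 1.81 CPM in amputated folds, against 4.41 ± 0.56 CPM in uncut folds, with 0.97 ± 0.19 (SE) and an edgeR adjusted p of 0.00127. The genes hif1aa and ldha rose by 1.15 and 0.45, with hif1aa at means of 1.78 CPM in amputated and 0.75 CPM in uncut folds. Other hypoxia-inducible factor genes did not rise. The genes hif1al and epas1b fell by 0.25 and 0.54, calls lost with library totals alone (edgeR adjusted p of 0.953 and 0.0633). That of hif1al was also lost without amputated replicate 1 (0.0809), amputated replicate 2 (0.0577), amputated replicate 3 (0.0547) or uncut replicate 2 (0.0653). At 0.06 and −0.23, hif1ab and epas1a did not pass the test, though hif1ab was called higher with library totals alone (0.00346). Means of hif1ab were 258 CPM in amputated and 248 CPM in uncut folds. The growth factor gene vegfaa was at −0.17 ± 0.13 (SE) and did not pass the test. Under scaling by totals alone, 4 rose and 5 fell. Without amputated replicate 1 or amputated replicate 2, 1 rose, as hif1aa (edgeR adjusted p of 0.0775 and 0.0633) and ldha (0.0581 and 0.0601) lost their calls. That of hif1aa was also lost without uncut replicate 2 (0.0614) or uncut replicate 3 (0.0654).

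**Figure D5:**
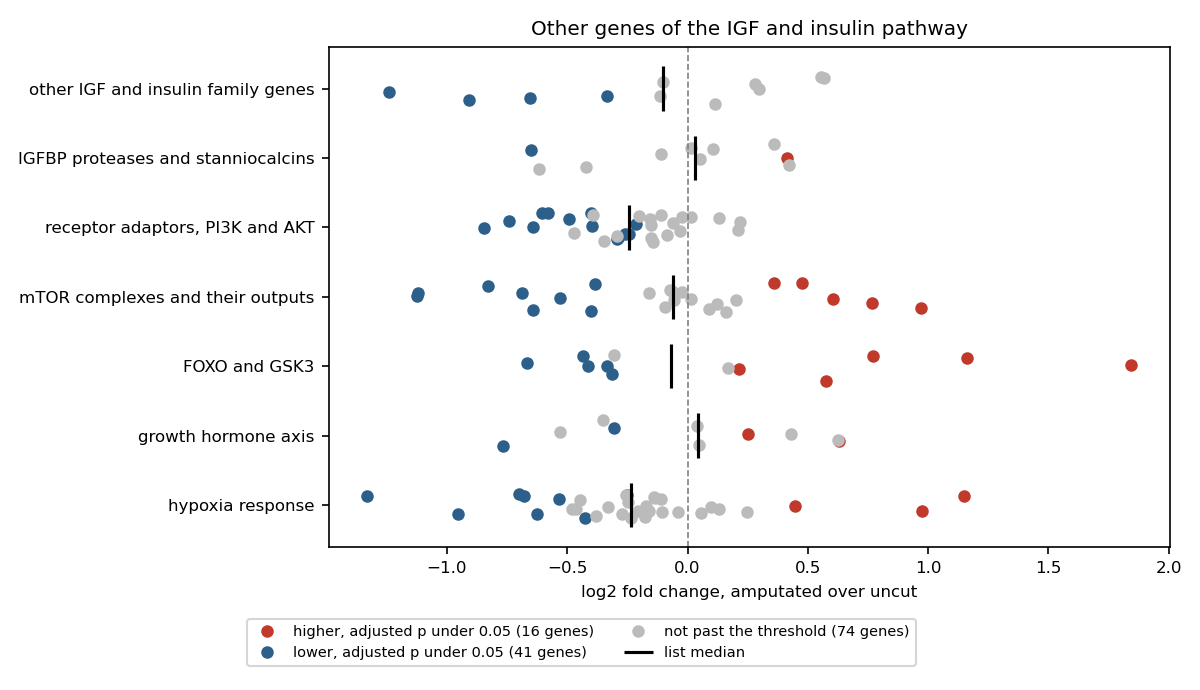
Log2 fold change, amputated over uncut, of the 131 tested genes of 7 pathway lists, coloured by the edgeR call across all genes (16 higher, 41 lower, 74 not past the threshold), with each list's median as a line, all under TMM scaling. With library totals alone 19 were lower and 32 higher, beside 1636 lower and 6821 higher over all 17883 tested genes. The receptor adaptor, PI3K and AKT list has 13 lower genes and none higher, and the mTOR list has 8 lower and 5 higher.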

How the data were processed

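The deposited table held raw read counts per Ensembl gene for 6 libraries. Per the submitters' processing notes TopHat, Cufflinks and DESeq2 were used. The sources used here do not name the counter, build or annotation, so reads of paralogs may be split in an unknown way, and the kit does not mark strand. The authors also deposited a normalized signal, counts divided by 1 size factor per library (checked on the values). The authors' log2 fold change, test score and p-value were also deposited per the file headers. All 12 per-sample columns were matched by name.

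The count test was edgeR 4.0.16, run in R 4.3.3 (filterByExpr with minimum count 10 and minimum total 15, TMM, glmQLFit, glmQLFTest, no covariate, Benjamini-Hochberg over 17883 genes, threshold 0.05), after a check on simulated counts. SEs were derived from the F statistic (log2 fold change divided by its root). DESeq2 1.42.0 was an alternative. Replicates differed by more than sampling noise (chi-square per degree of freedom 4.70 to 17.0).

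The members and the lists were chosen with earlier results of these data known. Named pathway genes were up to 4 per list by smallest adjusted p, from calls averaging 5 CPM or more, or the 2 with the highest mean where there was none. Genes named outside that rule were chosen after their values were seen: igfbp5a, igf2r, insrb, ins, insb, pappaa, pappa2, igf2bp2a, irs2b, inppl1a, inppl1b, phlpp1, phlpp2, ptena, ptenb, akt1, akt2, akt3a, akt3b, the other called mTOR and FOXO genes, mtor, eif4ebp1, sesn2, tsc1a, tsc1b, gsk3ab, sgk2b, sgk3, ghra, socs2, vegfaa, hif1aa, hif1ab, hif1al, epas1a, epas1b, ldha, egln3, p4ha1b, p4ha2, fabp10a, tfa, cp, csf1ra, col1a1a, and1, and2, tgfbi, twist1a, krt4, tns3.2 and adcy1a. Marker lists of basal epidermis, vascular endothelium, neurons and pancreas had 5 of 8, 1 of 8, 1 of 5 and 0 of 6 tested genes lower, and 4 of 6 pancreas genes higher, including gcga.

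Libraries of the same number had deviations from their group means that correlated at 0.222, 0.199 and 0.153, and those of different numbers at −0.143 to −0.04. Deviations cancel out within a group, so positive values for the same number bring negative values, on average, for different numbers. The labels give only the numbers, so this pairing comes from the data, and an alternative fit took the number as a block.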

Additional observations from a re-analysis of the deposited data

How the results depend on the processing

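The alternatives were DESeq2's size factors, library totals, DESeq2's test, no filter on low counts, an adjusted p under 0.01, the replicate number as a block, and each library left out. Of 88 recomputed values of the 8 tested members, igfbp3, igf1ra and igf1rb changed sign in some, and their main values are smaller than their error. With library totals alone the log2 fold change was −0.29 for igfbp2a, 0.21 for igfbp3, −0.23 for igfbp5b, −0.060 for igf2a, 0.43 for igf2b and 0.21 for igf1rb, and that scaling shifts the median of all genes by a like amount. It gave 6821 higher and 1636 lower genes, 5 higher among other IGF and insulin family genes, 3 higher proteases and stanniocalcins, 2 higher and 4 lower adaptor, PI3K and AKT genes, 10 higher and 5 lower mTOR genes, 0 lower FOXO and GSK3 genes, 1 lower growth hormone axis gene and 5 lower hypoxia genes. At an adjusted p under 0.01, 2283 genes were lower, with 8 lower adaptor, PI3K and AKT genes, 2 lower FOXO and GSK3 genes, 0 higher and 1 lower growth hormone axis genes, and 1 higher hypoxia gene.

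With the replicate number as a block, 4125 genes were higher and 4016 lower, 12 hypoxia genes were lower, 1 gene of the other IGF and insulin family was higher and 4 of the growth hormone axis were lower. The block gained 9 calls among list genes and lost 0. Without the filter 1 gene of the other IGF and insulin family was higher, and DESeq2 gave 1 higher growth hormone axis gene. Leaving out a library gave 0 to 1 higher among other IGF and insulin family genes, 1 to 2 lower proteases and stanniocalcins, 0 to 1 higher and 8 to 16 lower adaptor, PI3K and AKT genes, 2 to 5 lower FOXO and GSK3 genes, 0 to 2 higher and 1 to 4 lower growth hormone axis genes, and 1 to 3 higher and 6 to 12 lower hypoxia genes. The 1 higher adaptor, PI3K and AKT gene was not among those tested with all libraries. Over all genes tested, leaving out a library gave 3011 to 3869 higher and 2732 to 3667 lower. Over the 131 tested list genes and all these alternatives but the stricter threshold, 95 calls were lost and 47 gained, and no call turned to the opposite direction. Of the lost calls, 22 were lost with library totals alone. Depth limits igf1 and igfbp1b, and the cause of these shifts was not tested.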
